A study of Mus musculus with 24 samples.

Results

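The levels of 10 genes of brain endothelium and of the blood-brain barrier were followed across every library of the series. They were taken by name (Cldn5, Slc2a1, Abcb1a, Cdh5, Pecam1, Flt1, Kdr, Tek, Tie1 and Vwf), each matched to the 1 row of the count table whose symbol in capitals is that name (CLDN5, SLC2A1, ABCB1A, CDH5, PECAM1, FLT1, KDR, TEK, TIE1, VWF), and all 10 were found among 51733 genes. The hippocampi of each of 12 mice gave an input library, from the whole lysate, and an immunoprecipitate (IP), the RNA pulled down with an antibody to the HA tag. In RiboTag, the method named in the series' design, a ribosomal protein gains the tag in cells with Cre recombinase, and Cre here was under the CaMKIIα promoter, which is active in excitatory forebrain neurons.

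All mice were adult males, 2 to 3 months old, on the C57BL/6 background. The eIF2α cKI CaMKIIα mice were conditional knock-ins bred from eIF2αA/A;fTg+ animals, in which alanine replaces the phosphorylated serine of eIF2α. A floxed transgene supplies normal eIF2α until Cre removes it. The control mice are labelled as standard CaMKIIα-Cre+ animals, so Cre is shared by all groups. Each genotype was sampled naive or 1 h after fear conditioning, a pairing of a tone with a foot shock. The labels do not say which of the weak and strong training protocols was used. This gives 8 groups of 3 libraries (2 genotypes, 2 training states, 2 fractions). Cells without Cre, endothelial cells among them, should keep the transgene in cKI mice and should carry no tagged ribosomes. The inputs hold vessel RNA as a part of the whole tissue.

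Endothelial cells line brain capillaries and seal them with tight junctions, so that solutes must cross the cells by carriers and pumps. Vascular endothelial growth factor and the angiopoietins act on receptor tyrosine kinases of these cells and keep vessels growing, stable or quiescent. Of the genes studied here, Cldn5 encodes the main claudin of the tight junction, Slc2a1 the glucose carrier GLUT1 and Abcb1a the efflux pump P-glycoprotein. Cdh5 (VE-cadherin) and Pecam1 hold endothelial cells together. Flt1 and Kdr are receptors of vascular endothelial growth factor, Tek (Tie2) is the angiopoietin receptor and Tie1 its orphan partner. Vwf encodes von Willebrand factor, which tethers platelets.

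RefSeq promoter sequence on GRCm38.p6 was matched for 7 of the 10 genes (Cldn5, Slc2a1, Abcb1a, Flt1, Kdr, Tek and Tie1). The 250 bases before the start are shown for Cldn5, Tie1 and Abcb1a. Cldn5 and Tie1 are the 2 genes that passed the edgeR test fitted to all 12 inputs. Abcb1a holds AGGAAG, 1 form of a site of ETS transcription factors, a family active in endothelium, at 2 places. So does Flt1, which is not shown. Other forms of such sites were not searched for, so unmarked ones can be present. Sequences read 5′ to 3′ on the strand of the gene. Capitals mark AGGAAG or, on the opposite strand, CTTCCT. Cldn5 is read from chr16:18776597-18776846 (plus strand), Tie1 from chr4:118489850-118490099 (minus strand) and Abcb1a from chr5:8566841-8567090 (plus strand).
Cldn5: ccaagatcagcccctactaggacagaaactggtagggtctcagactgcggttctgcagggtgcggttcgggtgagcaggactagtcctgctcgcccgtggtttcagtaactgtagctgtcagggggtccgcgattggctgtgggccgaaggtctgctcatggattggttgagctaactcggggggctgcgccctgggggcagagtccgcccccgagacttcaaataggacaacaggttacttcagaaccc
Tie1: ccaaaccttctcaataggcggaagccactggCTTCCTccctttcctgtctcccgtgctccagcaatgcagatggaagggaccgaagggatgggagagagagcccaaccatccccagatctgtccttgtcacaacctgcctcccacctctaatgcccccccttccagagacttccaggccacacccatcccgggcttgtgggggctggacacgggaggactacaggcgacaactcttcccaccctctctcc
Abcb1a: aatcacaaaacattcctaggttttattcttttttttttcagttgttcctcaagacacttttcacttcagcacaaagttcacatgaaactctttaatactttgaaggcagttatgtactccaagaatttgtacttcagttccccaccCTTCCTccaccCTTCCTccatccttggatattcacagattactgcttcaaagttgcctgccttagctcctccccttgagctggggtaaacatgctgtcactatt
AGGAAG was found on either strand in 3 of the 7 promoters (Abcb1a 2 matches, Flt1 2 matches, Tie1 1 match), and in 29.48% of 32851 mouse promoters of the same length. The GC box GGGCGG, also searched on both strands, was found 1 time in Cldn5, 2 times in Slc2a1, 2 times in Kdr and 3 times in Flt1, and in 32.74% of those promoters. A match is a description of the letters only.

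Library totals ran from 28.8 to 37.7 M counts for inputs and from 30.6 to 43.5 M for IPs. Levels are in CPM, a gene's count divided by its library total in M, and 1 count stood for 0.0230 to 0.0347 CPM. Every member passed the low-count filter in each fit. Naive cKI input 3 was unlike its group, since 150 of its genes differed over 4-fold from the average of inputs 1 and 2, against 4 to 52 genes in other inputs. A chi-square per degree of freedom between the counts of library pairs set other libraries apart. Naive control input 2 was at 22.9 and 28.6 from inputs 1 and 3, which were at 4.03 from each other. Naive cKI input 3 was at 14.2 and 15.3, against 8.74 between inputs 1 and 2. Naive cKI IP 2 was at 33.8 and 31.8 from IPs 1 and 3, against 8.83 between those. Hippocampal neurons were well represented, with 5989 to 7140 CPM for the sum of 7 excitatory neuron markers in inputs. The amino acid changed in eIF2α is not read by gene counts, so the knock-in could not be checked in them. Sequencing lanes, read from the library names, followed the groups. All cKI inputs and naive control inputs 1 and 2 were on lane 4, and naive control input 3 with the 3 control inputs at 1 h on lane 5. IPs of naive cKI mice and cKI 1 h replicate 1 were on lane 5 and all other IPs on lane 6. CPM are not corrected for gene length, so levels of different genes are not compared. The edgeR p-values rest on the spread between these libraries, counting error included. The main fit over all 24 libraries did not pair the input and IP of a mouse.

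In the inputs every vessel transcript was well counted, from a lowest count of 161 for Tie1 in 1 library to a highest of 3581 for Slc2a1. Over the 12 inputs the tight-junction gene Cldn5 was at 27.2 ± 7.50 CPM (SD, n = 12), Slc2a1 at 85.5 ± 12.2 and Abcb1a at 23.1 ± 2.44. The junction genes Cdh5 and Pecam1 were at 10.6 ± 0.995 and 8.83 ± 1.00 CPM. Flt1 was at 38.0 ± 3.91 CPM and Kdr at 12.0 ± 1.72, Tek at 11.5 ± 1.18 and Tie1 at 8.46 ± 1.74, and Vwf at 23.3 ± 4.89. Cldn5 had the largest SD relative to its mean, with its 3 highest values in naive controls. Vwf ranged from 17.5 to 31.7 CPM within the 3 control mice at 1 h alone. The 10 genes summed to 208 to 290 CPM per input.

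**Figure D1:**
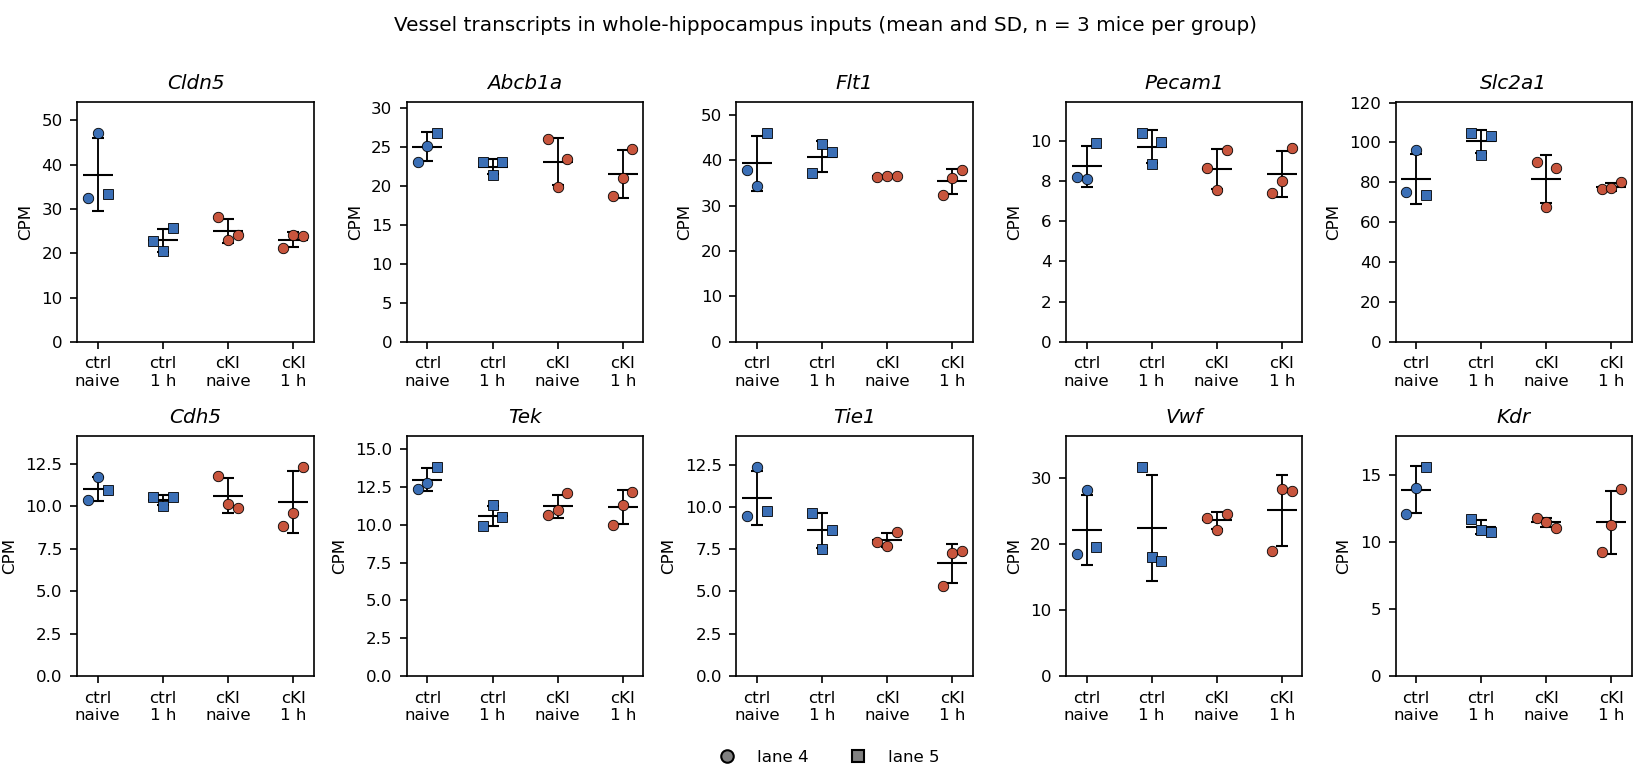
Level of each vessel gene in the 12 hippocampal inputs (CPM, linear axes from 0), with groups on the horizontal axis, points for single mice (circles lane 4, squares lane 5), and a bar and whiskers for the mean and SD of 3 mice. Cldn5 lies at 32.5 to 47.2 CPM in naive controls and at 20.4 to 28.2 CPM in the other 9 inputs.

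All 10 vessel transcripts were depleted in the ribosome pulldown. This comparison asks how the levels relative to all counted RNA differed between IP and input. CPM are relative to a library's total, so kept and retained below mean a ratio of relative levels, not a yield of RNA. In the IPs their sum was 16.2 to 25.1 CPM, against 208 to 290 CPM in inputs, and in each of the 12 mice every gene was lower in the IP than in the input of the same mouse. For 8 of the genes the IP level was 3.52 to 5.74% of the input level on average, while Kdr kept 11.02% and Slc2a1 12.9%.

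By the edgeR quasi-likelihood test 10 of 10 were lower in IPs, beside 43.1% of all 17453 genes tested (85.9% in either direction), and DESeq2 also called all 10, beside 85.3% in either direction. The median log2 fold change was -4.02, with -4.57 for Cdh5 at one end and -2.66 for Slc2a1 at the other, and the median over all genes was -0.01. These fold changes use TMM-scaled libraries and lie about 0.3 above the CPM ratios of the same mice (Slc2a1 a mean log2 ratio of -2.65 with TMM and -2.96 in CPM). The largest edgeR adjusted p of the 10 was 3.67e-16, for Vwf, at a log2 fold change of -4.15 (SE 0.15).

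Cdh5, the adhesion molecule of endothelial junctions, was at 10.6 ± 0.995 CPM in inputs and 0.369 ± 0.129 CPM in IPs (SD, n = 12 each). In single IPs it had 8 to 23 counts. Naive control IPs were at 0.204, 0.345 and 0.284 CPM, control IPs at 1 h at 0.513, 0.664 and 0.490, naive cKI IPs at 0.274, 0.349 and 0.299, and cKI IPs at 1 h at 0.298, 0.304 and 0.400. The 3 control IPs at 1 h were above the other 9, a separation that was not counted over all genes. Abcb1a kept 3.80% ± 1.02 of its input level, Tek 4.40% ± 1.54, Vwf 4.61% ± 1.12, Pecam1 4.87% ± 1.29, Cldn5 5.27% ± 1.49, Tie1 5.29% ± 2.24 and Flt1 5.74% ± 1.33 (SD over 12 mice). Abcb1a has a close paralog, Abcb1b, and how reads shared by both were counted is not given in the sources used here. Abcb1b itself was at 3.65 ± 0.402 CPM in inputs and 1.67 ± 0.285 CPM in IPs.

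Slc2a1 was the best retained. Its IP level was 11.8, 12.1 and 9.93 CPM in naive controls, 14.1, 11.2 and 12.2 in controls at 1 h, 10.4, 9.80 and 12.0 in naive cKI mice and 10.02, 8.65 and 9.55 in cKI mice at 1 h. As a share of the input of the same mouse this was 11.2 to 15.7%, the narrowest range of the 10 in relative terms. Kdr, the main signalling receptor for vascular endothelial growth factor, kept 5.64 to 14.96%. Naive control mice 2 and 3 (6.73 and 5.64%) and cKI 1 h mouse 3 (7.18%) were lowest for Kdr, and naive cKI mouse 1 (14.96%) was highest. The control mice at 1 h were at 13.8, 13.7 and 13.96%, naive control mouse 1 at 13.2%, and the other 4 cKI mice at 9.59 to 12.3%. Flt1, the other receptor of that family, kept 4.38 to 8.43%.

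Neighbours in the order of retention were compared mouse by mouse with a two-sided sign-flip permutation test over all 4096 flips, adjusted by Benjamini-Hochberg over the 9 pairs. Kdr exceeded Flt1 by 0.91 on the log2 scale (SD 0.53) in 11 of 12 mice, with an exact permutation p of 0.000977 and an adjusted p of 0.00879. Slc2a1 exceeded Kdr by 0.29 (SD 0.50) in 8 of 12 mice, with an exact permutation p of 0.0757 and an adjusted p of 0.341. The other 7 neighbouring pairs differed by 0.045 to 0.17 on the log2 scale, with adjusted p of 0.582 or above. The order tested was itself taken from these 12 mice, so the p-values describe neighbours chosen by their means, and Kdr was compared with Slc2a1 and Flt1 only. In single mice the ranges met, as in cKI 1 h mouse 3, where Kdr was at 7.18%, Flt1 at 7.34% and Tie1 at 7.74%.

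**Figure D2:**
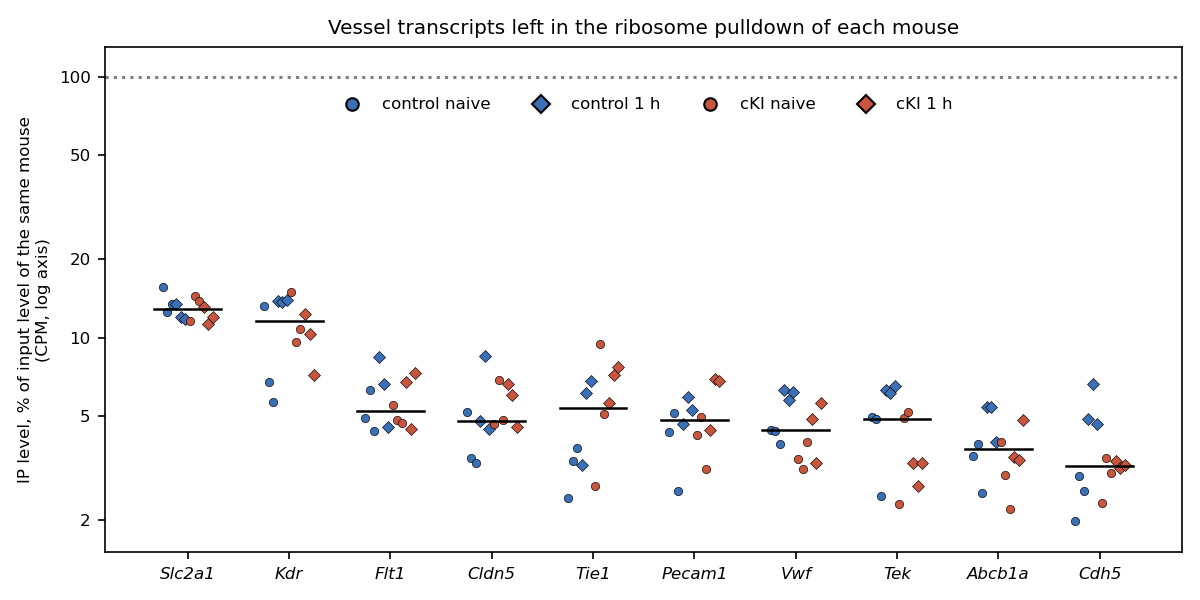
IP level as a percentage of the input level of the same mouse, from CPM, on a log axis, for each vessel gene (points: 12 mice by genotype and training, bars: median, dotted line: equal levels). No point lies above 15.7%, and Slc2a1 and Kdr lie highest, with medians of 12.8 and 11.5%.

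Other genes of the vessel wall were mostly depleted too, but less evenly. By edgeR 43.1% of all genes were lower in IPs and 85.9% passed in either direction. The counts in this and the next 2 paragraphs stand beside those shares. Among 30 further endothelial genes 28 were lower in IPs and 2 higher (median log2 fold change -3.52). Pglyrp1 was at -5.03, and S1pr1, a sphingosine phosphate receptor shared with astrocytes, at -4.33. The 2 that were higher, Egfl7 named after its value was seen, were Cd34 (0.82, SE 0.06), a sialomucin also made outside vessels, and Egfl7 (0.39, SE 0.06), the host of an intronic microRNA. Barrier junction and transport genes had 20 of 24 lower and 2 higher (median -1.33). The lipid carrier Mfsd2a was at -2.68. The amino acid carrier Slc7a5 (-0.71), its partner Slc3a2 (-0.22), the lactate carrier Slc16a1 (-0.45) and the scaffold Tjp1 (-0.79) lay closer to the inputs. Plvap (0.59) and, named after its value was seen, the amino acid carrier Slc38a5 (0.65) were higher in IPs. The transferrin receptor Tfrc (0.09) and Slc7a1 (-0.04) did not pass.

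Of 19 tested vessel growth factors and co-receptors 13 were lower and 3 higher (median -0.995). The receptor Fzd4 was at -2.10, and the neural Wnt ligands Wnt7a and Wnt7b at -0.38 and -0.62. The 3 that were higher were the guidance genes Sema3e (0.99) and Nrp1 (0.34) and, named after its value was seen, the placental growth factor Pgf (0.34). Mural cell genes, of pericytes and smooth muscle, had 16 of 17 lower (median -3.09), with Pdgfrb at -3.66, Vtn at -4.96 and Rgs5 at -1.71. Arterial and venous genes had 10 of 12 tested lower and 1 higher, Ackr1 at 0.50, named after its value was seen (median -2.73). Those with the highest input level were Efnb2 (0.03, which did not pass), Nr2f2 (-2.70) and Vcam1 (-3.99). All 8 endothelial early-response genes were lower (median -2.08), among them the transcription factor Klf2 at -1.74 and the protease Adamts1 at -0.35.

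Markers of other cells without the Cre driver were mostly lower as well. Medians were -3.73 for 8 astrocyte, -4.19 for 8 oligodendrocyte and -4.60 for 10 microglia markers, all of them lower, and -2.05 for 6 inhibitory neuron markers, also all lower. Perivascular fibroblast and leptomeningeal markers had a median of -3.69 (8 of 8 lower), blood and platelet markers of -4.46 (5 of 5 tested lower) and choroid plexus markers of -2.37 (6 of 9 lower, 1 higher). All 7 excitatory neuron markers were higher (median 1.16), among them Camk2a (0.96) and Nrgn (1.33). The vessel median of -4.02 lies within the span of the glial medians, and no test of that position was made.

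**Figure D3:**
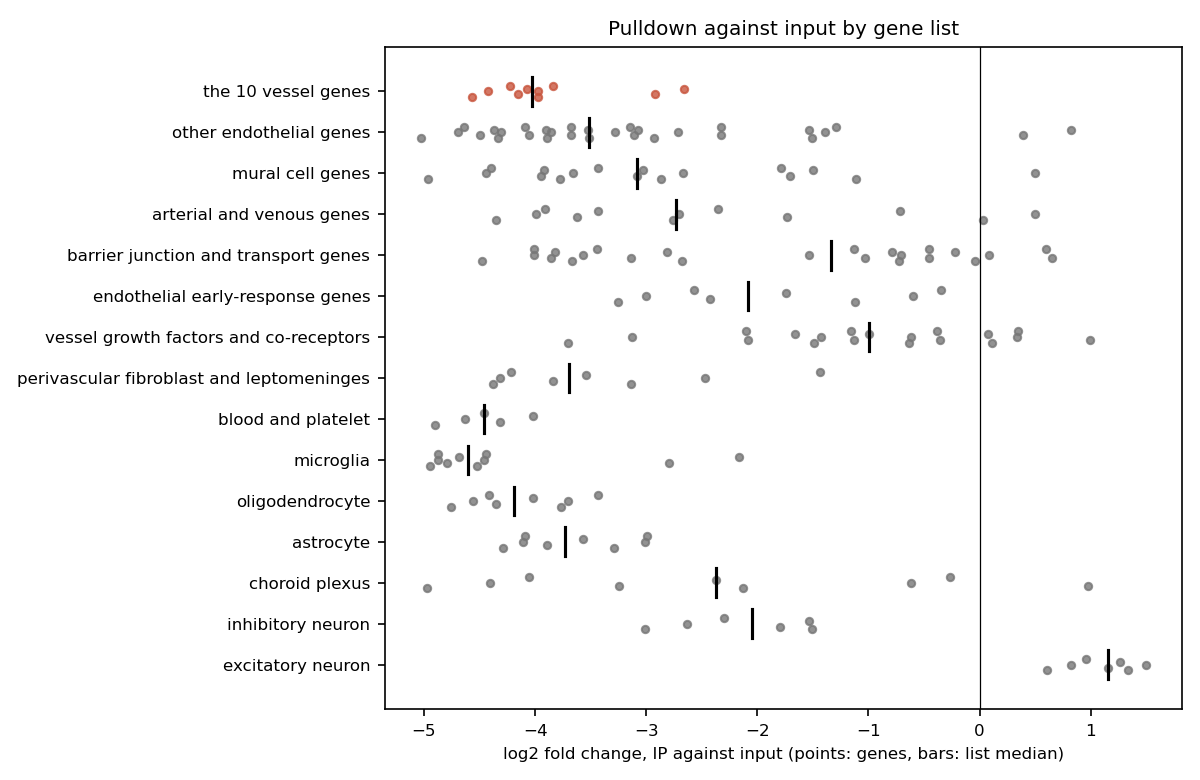
Log2 fold change of IP against input for each gene of each list (points) with the list median (vertical bars), and a line at 0. The 10 vessel genes lie between -4.57 and -2.66, and the excitatory neuron markers all lie above 0.

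In the inputs 9 of 10 vessel transcripts had a lower fitted level in cKI mice, and 1, Tie1, passed the test. Here cKI was compared with control over both training states, 6 mice against 6. The median log2 fold change was -0.13, against 0.00 over all genes. By edgeR 1 of 10 was lower, beside 2% of all genes in that direction and 3.15% in either, so the share rests on 1 gene. An unadjusted p under 0.05 was found for 4 of 10, against 20.5% of all genes.

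Tie1 was at 9.44, 12.4 and 9.78 CPM in naive controls and 9.65, 7.53 and 8.64 in controls at 1 h. In cKI mice it was at 7.92, 7.71 and 8.51 CPM when naive and 5.33, 7.29 and 7.39 at 1 h. Within each training state all 3 cKI inputs lay below all 3 controls, a separation that was not counted over all genes. Over both states the ranges overlapped, since the controls at 1 h reached down to 7.53. The group means were 9.56 ± 1.60 CPM in controls and 7.36 ± 1.09 in cKI mice (SD, n = 6), and the log2 fold change was -0.38 (SE 0.09, edgeR adjusted p 0.0457), or 23.2% lower in the fit. This call was lost with the replicate number as a block (adjusted p 0.0782), with lane as a covariate (-0.45, adjusted p 0.171) and in 9 of 12 fits that left out 1 input (adjusted p up to 0.105, log2 fold change -0.42 to -0.31), all but those without naive control 1, naive control 3 or control 1 h replicate 2. Without naive cKI replicate 3, the input with the most genes over 4-fold from its group, it was -0.41 with an adjusted p of 0.0523. Without naive control replicate 2, which had the highest Tie1 level, it was -0.33 with an edgeR adjusted p of 0.0520. Of the 20 tested genes nearest to Tie1 on chromosome 4, 2 passed in this comparison by edgeR, beside the 3.15% of all genes. For Slc2a1, on the same chromosome, 3 of 20 passed, and for the other members 0 or 1 of 20. The promoter segments of Tie1 and Slc2a1 begin at 118489850 and 119108495 on chromosome 4. Their sets of 20 neighbours may share genes, and Tie1 itself may be among those of Slc2a1, so the counts are not separate. A part of this chromosome segment in their values was not tested.

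Of the barrier genes in this comparison, Cldn5 lay at -0.29 (SE 0.09, edgeR adjusted p 0.108) and Slc2a1 at -0.19 (SE 0.07, adjusted p 0.171) on the log2 scale. DESeq2 called 2 genes, Tie1 and Cldn5 (adjusted p 0.00795 and 0.0341), beside 5.52% of all genes. The receptor Flt1 was at -0.17 (SE 0.07, edgeR adjusted p 0.23). Vwf had the 1 positive value, 0.13, and Cdh5 the negative value nearest 0, -0.04.

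In naive mice alone 0 of 10 passed by edgeR, beside 0.859% of all genes. An unadjusted p under 0.05 was found for 4 of 10, against 17.6% of all genes. The 4 were Cldn5 (-0.59, SE 0.13, edgeR adjusted p 0.0574), Tie1 (-0.39, adjusted p 0.161), Tek (-0.22, adjusted p 0.245) and Kdr (-0.29, adjusted p 0.259). In each of these the 3 naive cKI inputs lay below the 3 naive controls. The 4 were picked by p in these same inputs, and the share of all genes with groups apart was not counted. DESeq2 called 1, Cldn5 (adjusted p 0.000985), beside 2.93% of all genes, and without naive control replicate 1 edgeR called it as well (-0.68, adjusted p 0.0496). With the inputs of lane 4 only, a fit chosen after seeing the data that keeps naive controls 1 and 2, Cldn5 was at -0.66 with an adjusted p of 0.0976.

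At 1 h after conditioning 0 of 10 passed by edgeR, beside 0.267% of all genes. An unadjusted p under 0.05 was found for 2 of 10, Slc2a1 and Tie1, against 8.98% of all genes. Slc2a1 was at 105, 93.8 and 103 CPM in controls and at 76.4, 77.0 and 80.0 CPM in cKI mice. These groups lay apart, which was not counted over all genes. The fitted difference of Slc2a1 was -0.37 (log2, SE 0.10, edgeR adjusted p 0.254). DESeq2 called it (adjusted p 0.0392, beside 0.917% of all genes), and so did edgeR fitted to these 6 inputs only (adjusted p 0.000391). With lane as a covariate it was -0.54 with an adjusted p of 0.421, and at 1 h no lane held inputs of both genotypes.

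Some other vessel genes were lower in the cKI inputs over both training states, in lists of which 0 to 3 genes each passed in that direction, beside the 2% of all genes given above. Of 30 further endothelial genes 3 were lower and 1 higher, of 24 barrier genes 1 was lower, of 17 mural genes 2, of 19 growth factors and co-receptors 2 and of 8 early-response genes 1, while of 12 arterial and venous genes 0 passed. Mfsd2a, the lipid carrier that limits transcytosis across the barrier, was at 30.1 ± 3.41 CPM in controls and 21.5 ± 2.86 in cKI mice (SD, n = 6), or -0.49 in log2 (SE 0.07, edgeR adjusted p 0.00255). At 1 h alone it was at -0.70 (adjusted p 0.0113), a call lost in 3 of 12 fits that left out 1 input (adjusted p up to 0.0788) and with lane as a covariate (0.417). Slc7a5 was lower at 1 h too (-0.28, adjusted p 0.0466), a call lost in 9 of 12 such fits and with lane (0.428). Pglyrp1, a peptidoglycan recognition protein, was at -0.62 (adjusted p 0.00892), and the nitric oxide synthase Nos3 at -0.48 (adjusted p 0.0308). The sialomucin Emcn was at -0.53 (adjusted p 0.0443), the mural genes Mcam and Pdgfrb at -0.35 and -0.22, the neural signals for barrier formation Wnt7a and Wnt7b both at -0.23, and Apold1 at -0.50. Cd34 was higher (0.23, adjusted p 0.0178). Mfsd2a, Pglyrp1 and Mcam passed over both training states in all 12 fits that left out 1 input, the other 7 lost the call in 2 to 9 of them (adjusted p up to 0.111), and with lane as a covariate none of these 10 passed (Mfsd2a adjusted p 0.0943, Pglyrp1 0.0903, Mcam 0.167). In naive mice alone Mcam was at -0.54 (edgeR adjusted p 0.0148) and passed with lane as a covariate (-0.53, adjusted p 0.0362).

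Markers of other cells moved in the same comparison. In cKI inputs 7 of 8 oligodendrocyte markers were lower (median -0.31), with a summed level of 3980 to 4863 CPM in cKI mice and 4396 to 6308 CPM in controls. Of the others 3 of 8 astrocyte (median -0.09), 2 of 6 inhibitory neuron (median -0.15) and 1 of 8 fibroblast and leptomeningeal markers (median -0.35) were lower, 0 of 9 choroid plexus markers passed (median -0.37), 0 of 10 microglia markers passed (median 0.14) and 0 of 7 excitatory neuron markers passed (median 0.09). Of 5 blood and platelet markers 0 passed (median 0.09). No marker of these lists was at 0 in any input. In naive mice alone all 8 oligodendrocyte markers were lower in cKI inputs (median -0.43). In bulk tissue fewer cells of a type and less RNA per cell cannot be told apart, and the part of tissue composition in the vessel values was not tested.

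Cldn5 was lower in the inputs of control mice at 1 h after conditioning than in those of naive control mice, groups that also differ largely in lane. This comparison asks how vessel transcripts in whole hippocampus differed between trained and naive mice. Naive controls were at 32.5, 47.2 and 33.4 CPM and controls at 1 h at 22.7, 20.4 and 25.6 CPM. These groups did not overlap, which was not counted over all genes. Naive cKI inputs were at 28.2, 22.9 and 24.2 CPM and cKI inputs at 1 h at 21.1, 24.2 and 24.0 CPM. The naive controls were thus the 3 highest of all 12.

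The log2 fold change of Cldn5 in controls was -0.70 (SE 0.13, edgeR adjusted p 0.0275), or 38.6% lower. It was 1 of 10 called, beside 0.325% of all genes in that direction and 0.737% in either. In cKI mice the fitted difference was -0.11 (SE 0.13). The interaction, the difference between those changes, was 0.60 (SE 0.19) with an unadjusted p of 0.0072 and an edgeR adjusted p of 0.801, so a difference between genotypes was not established. Without naive control replicate 2, the highest, the change was -0.53 and still passed (adjusted p 0.0295). It did not pass without any 1 of the 3 controls at 1 h or without cKI 1 h replicate 3 (adjusted p 0.0519 to 0.118), with no filter on low counts (0.0677), with the replicate block (0.0722), or in a fit to the control inputs alone (0.11). With lane as a covariate it was -0.57 (adjusted p 0.599). Naive control 3 shared lane 5 with the controls at 1 h, and in a fit without naive controls 1 and 2, chosen after seeing the data, it was -0.57 (adjusted p 0.242), where the lone naive input is assumed to vary like the others. DESeq2 called Cldn5 (adjusted p 2.86e-05) beside 1.74% of all genes.

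Beside Cldn5, 3 genes had an unadjusted p under 0.05 in control inputs, where 11.7% of all genes did. The receptors Tek (-0.29, SE 0.09) and Kdr (-0.31, SE 0.13) were lower without overlap, which was not counted over all genes, with edgeR adjusted p of 0.231 and 0.347. Slc2a1 had a positive value, 0.31 (SE 0.10, adjusted p 0.254), from 81.9 ± 12.5 CPM naive to 101 ± 5.91 CPM at 1 h (SD, n = 3). The members thus differed in sign, with 4 positive and 6 negative and a median of -0.11.

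**Figure D4:**
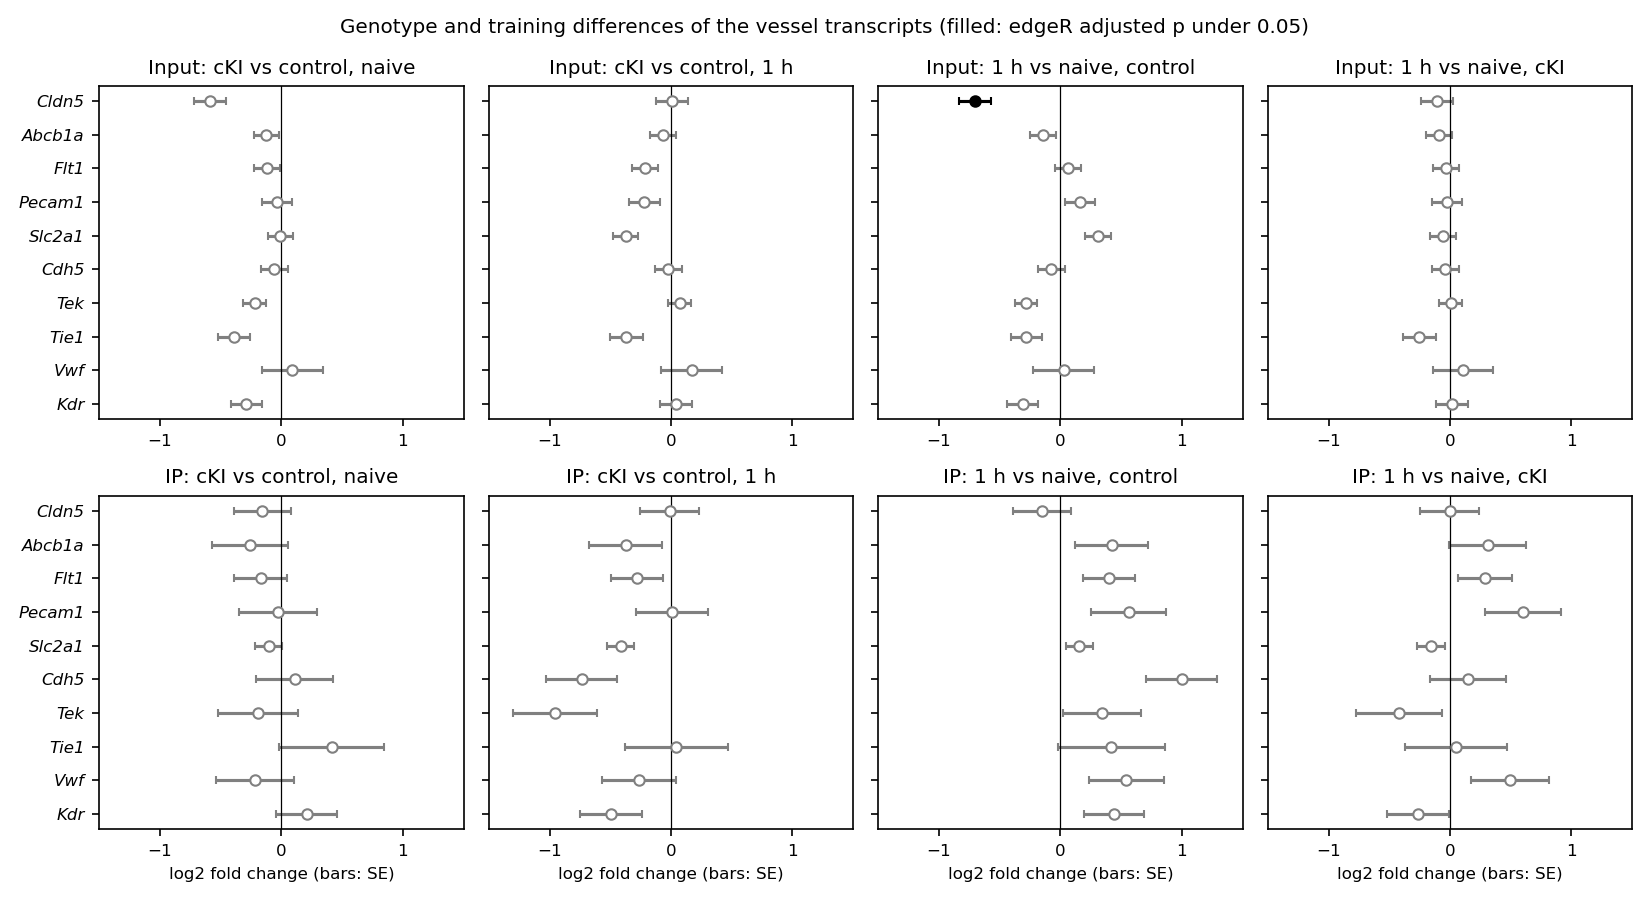
Log2 fold changes of the vessel genes in inputs (top) and IPs (bottom), for genotype within each training state and training within each genotype (the comparisons over both, in which Tie1 passed, are not drawn), with bars for 1 SE from the edgeR fit and filled points for an adjusted p under 0.05. Cldn5 in control inputs after training (-0.70) is the filled point among these 8 panels, and bars are wider in IPs than in inputs.

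In cKI inputs 0 of 10 passed after training by edgeR, beside 0.0174% of all genes, with 0 at an unadjusted p under 0.05 and 0 by DESeq2 (0.128%). Averaged over both genotypes 0 passed (0.818%), with 2 at an unadjusted p under 0.05, Cldn5 (-0.40, SE 0.09, edgeR adjusted p 0.0784) and Tie1 (-0.27, SE 0.09, adjusted p 0.272). Of all genes 12.2% were under 0.05 unadjusted in that comparison. DESeq2 called Cldn5 there (adjusted p 0.00195, beside 1.68%), and edgeR did so without naive control replicate 2 (-0.32, adjusted p 0.0451). The interaction called 0 of 10 by edgeR (0.0348%) and 0 by DESeq2 (0.192%), with 3 at an unadjusted p under 0.05, Cldn5, Slc2a1 (-0.37) and Tek (0.29). Of all genes 4.82% were under 0.05 unadjusted for the interaction.

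Among the other vessel genes, the mural gene Mcam (-0.56, edgeR adjusted p 0.0122), Pdgfrb (-0.35, adjusted p 0.0283) and the Wnt inhibitor Apcdd1 (-0.32, adjusted p 0.026) were lower in control inputs after training, and the Norrin and Wnt receptor Fzd4 was higher (0.38, adjusted p 0.0231). With lane as a covariate none of these 4 passed (Mcam adjusted p 0.239, Pdgfrb 0.565, Apcdd1 0.0572, Fzd4 0.656). Over both genotypes Sox7, a transcription factor of endothelium, was lower (-0.77, adjusted p 0.0248) at 1.23 ± 0.199 CPM against 2.12 ± 0.296 naive (SD, n = 6). Mcam (-0.37, adjusted p 0.0223) and Pdgfrb (-0.26, adjusted p 0.0230) were also lower over both genotypes. Apcdd1 was lower too (-0.28, adjusted p 0.00852) and was the 1 vessel gene to pass with lane as a covariate in this comparison (-0.34, adjusted p 0.012). Of these genes Apcdd1 over both genotypes kept its call in all 12 fits that left out 1 input, and the others lost it in 2 to 8 of them. Of 8 endothelial early-response genes 0 passed in control inputs (median 0.31). In control inputs after training 7 of 8 oligodendrocyte markers were lower (median -0.43), with a summed level of 4396 to 5080 CPM at 1 h against 5745 to 6308 CPM naive. The median of 9 choroid plexus markers was 0.57, 0 of them passed, and they summed to 167 to 742 CPM at 1 h against 188 to 472 CPM naive. Their part in the Cldn5 value was not tested.

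In the pulldown 0 of 10 vessel genes passed by edgeR or DESeq2 in any of the 7 comparisons of genotype and training. Beside these, edgeR called 1.69% of all genes for genotype over both training states, 3.7% in naive mice and 0.0591% at 1 h. For training it called 0.387% over both genotypes, 0.328% in controls and 0.0459% in cKI mice, and 0.0131% for the interaction. In the same order DESeq2 called 5.11, 8.21 and 0.308% for genotype, 2.2, 1.67 and 0.82% for training and 0.578% for the interaction. Members had 7 to 27 counts per IP for Tie1 and 8 to 27 for Tek, and the SE of the log2 fold change of Tek at 1 h was 0.35. Slc2a1 had 313 to 525 counts per IP and an SE of 0.11 in the same comparison.

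At an unadjusted p under 0.05 there were 2 genes for genotype over both training states, Slc2a1 (-0.26, SE 0.08, edgeR adjusted p 0.114) and Tek (-0.57, SE 0.24, adjusted p 0.219). At 1 h there were 3, Slc2a1 (-0.41, SE 0.11, adjusted p 0.49), Tek (-0.96, SE 0.35, adjusted p 0.79) and Cdh5 (-0.74, SE 0.29, adjusted p 0.81), and 0 in naive mice. Of all genes 18.5% were under 0.05 unadjusted over both training states, 5.56% at 1 h and 22.3% in naive mice. The IP values of Slc2a1 given above lie at 11.2 CPM or more in controls at 1 h and at 10.02 CPM or less in cKI mice at 1 h. That separation was not counted over all genes. Slc2a1 thus had negative values at 1 h in both input and IP, and edgeR fitted to all 12 libraries of a fraction called neither. Input and IP came from the same mice, so the 2 values are not independent. In both fractions the lanes were divided unevenly between the genotypes at 1 h.

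After training in control mice 9 of 10 values were positive in IPs (median 0.42, against 0.00 over all genes). Cdh5 had the smallest p (1.00, SE 0.29, unadjusted p 0.00452, edgeR adjusted p 0.193), the 1 gene under an unadjusted 0.05, beside 10.3% of all genes. Over both genotypes 4 genes were under 0.05 unadjusted, Cdh5 (0.57), Pecam1 (0.58), Vwf (0.52) and Flt1 (0.34), with edgeR adjusted p of 0.277 to 0.366. Of all genes 13.0% were under 0.05 in that comparison. In cKI mice 6 of 10 were positive and 0 were under 0.05 (12.8% of all genes), and the interaction had 0 under 0.05 (9.34% of all genes). Of the other vessel genes, Adgrf5, an adhesion receptor of endothelium, was higher in IPs after training (0.67, adjusted p 0.0488). Plvap, a fenestral diaphragm protein, was higher in cKI IPs (0.38, adjusted p 0.0176), at 8.86 ± 0.968 CPM against 6.68 ± 0.514 in controls (SD, n = 6). In inputs Plvap was at 6.97 ± 0.327 CPM in cKI mice and 5.68 ± 0.686 in controls, without a call. In naive cKI IPs Wnt7a (-0.66), Slc16a1 (-0.43) and Slc7a1 (-0.41) were lower. With lane as a covariate none of these passed (adjusted p 0.469 to 0.92), and they lost the call in 1 to 11 of 12 fits that left out 1 IP. Against input, Wnt7a (-0.38), Slc16a1 (-0.45), Slc7a1 (-0.04) and Plvap (0.59) lay far from the members' median of -4.02, while Adgrf5 was at -3.15. Which cells gave the IP counts of these genes was not tested.

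The IP-to-input ratio of each transcript's relative level did not pass a test for either factor. For genotype 0 of 10 passed by edgeR (0.0229% of all genes) and 0 by DESeq2 (0.241%). Under an unadjusted 0.05 were 2, Tek (-0.48, SE 0.21) and Tie1 (0.64, SE 0.29), in opposite directions, beside 15.6% of all genes. For training 0 of 10 passed by edgeR (0.00573%) and 0 by DESeq2 (0.0344%), with 9 of 10 values positive and 4 under an unadjusted 0.05, Cdh5 (0.64), Pecam1 (0.52), Abcb1a (0.50) and Flt1 (0.34). Of all genes 42.3% had a negative value for training and 4.13% were under an unadjusted 0.05. Cdh5 kept 2.50% ± 0.49 of its input level in naive controls and 5.38% ± 1.09 in controls at 1 h, and 2.93% ± 0.563 and 3.27% ± 0.102 in cKI mice (SD, n = 3).

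Across the 12 inputs the members moved together to different degrees. As a description over 12 libraries that share groups and lanes, the Pearson correlation of each gene with the mean of the other 9 (log2 CPM) was 0.87 for Abcb1a, 0.81 for Tie1, 0.81 for Kdr and 0.74 for Cdh5. It was 0.55 for Cldn5, 0.54 for Tek, 0.46 for Pecam1, 0.25 for Flt1, 0.21 for Slc2a1 and 0.15 for Vwf. The mean of the 10 centred genes was highest in naive control 2 (0.19) and naive control 3 (0.18) and lowest in cKI 1 h replicate 1 (-0.29). The 5 other genes whose input levels were most like that mean, of 14415 with at least 1 CPM, were AC164164.1 (r 0.91), Uaca (0.90), Slc39a1 (0.90), Sptssb (0.89) and Igfbp7 (0.89). Igfbp7 encodes a secreted growth factor-binding protein found in vessel walls.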

How the data were processed

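RNA from 12 inputs and 12 immunoprecipitates was sequenced from directional poly(A) libraries, per the labels' protocols. The authors deposited 1 table of raw read counts per gene for all 24 libraries. Cutadapt, Bowtie and DESeq2 are named in the submitters' processing notes. For the counting tool, strand setting and genome build, nothing is stated in the sources used here. No column was left out. RefSeq symbols matched 92.007% of the 51733 table symbols.

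From the counts, edgeR 4.0.16 in R 4.3.3 (TMM scaling, filterByExpr with a minimum count of 10, robust quasi-likelihood test) was run on all genes, with Benjamini-Hochberg adjustment and a threshold of 0.05. Inputs, immunoprecipitates and all 24 libraries were fitted separately, with 17232, 15238 and 17453 genes tested. Fold changes are edgeR's unless DESeq2 (1.42.0) is named, and the code was tested on simulated data. Alternatives were DESeq2, its size factors, no filter, a replicate block, lane, fits to the groups compared, and leaving out each library. Input and immunoprecipitate of a mouse share the animal, which pairs them, and mouse as a replicate block left all 10 called against input. The members and lists were chosen with earlier results of these data known. All members are named. From each vessel list, names were drawn from the 3 genes with the highest input level and those past the threshold for genotype or training. From each cell type list they were drawn from the 2 highest. Some genes of this choice are not named, and names from outside it are marked.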

Additional observations from a re-analysis of the deposited data

How the results depend on the processing

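Of the vessel genes, 10 of 10 stayed lower in IPs than in inputs under every alternative run, and the counts of 0 in the IP comparisons and in the IP-to-input ratio stayed at 0. In inputs the counts of members called moved. Genotype over both training states went from 1 to 2 with DESeq2, to 0 with the replicate block and to 0 with lane as a covariate, and gave 0 to 1 when 1 library was left out. Genotype in naive mice went from 0 to 1 with DESeq2 and gave 0 to 1 when 1 library was left out. Genotype at 1 h went from 0 to 1 with DESeq2 and to 1 when only the groups compared were fitted. Training over both genotypes went from 0 to 1 with DESeq2 and gave 0 to 1 when 1 library was left out. Training in controls went from 1 to 0 with no filter, the replicate block, lane, only the groups compared and only lane 5 for the controls (chosen after seeing the data), and gave 0 to 1 when 1 library was left out. The causes were not tested. No called value changed sign, and 176 of 3360 uncalled values compared had the other sign.

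Replicate numbers were not taken to pair libraries within a fraction, since some same-numbered libraries did not deviate together (same-number correlation of deviations -0.114 to 0.083 in inputs, -0.189 to 0.404 in IPs). Over all genes, counts of calls moved by over 1.5 times as follows. With DESeq2 they went from 543 to 951 (input genotype), 148 to 505 (naive), 46 to 158 (1 h), 141 to 289 (input training), 127 to 299 (controls), 3 to 22 (cKI) and 6 to 33 (interaction). In IPs the same order gave 258 to 779, 564 to 1251, 9 to 47, 59 to 335, 50 to 255, 7 to 125 and 2 to 88, and the ratio 4 to 42 (genotype) and 1 to 6 (training). The replicate block gave 292 (input genotype), 93 (naive), 17 (1 h), 87 (training), and in IPs 467 (genotype), 1018 (naive), 32 (training, cKI) and 4 (interaction), with 1 for the ratio by genotype. Lane gave 18, 1 (1 h), 19, 13 (training, controls) and 1 (interaction) in inputs, 3, 1, 5, 2, 26, 0 and 0 in IPs, 0 for both ratios and 9763 instead of 14996 for IP against input. With no filter the input interaction gave 10, the ratio by genotype 1, and IPs 22 (1 h), 123 and 112 (training, mean and controls), 25 (cKI) and 16 (interaction). Counts per IP ran from 7 to 27 for Tie1 and from 313 to 525 for Slc2a1, and counting error was not separated from the spread between mice.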
